A study of Caenorhabditis elegans with 4 samples.

Results

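The regions described here are the stretches of worm RNA at which both MSTR-1::FLAG eCLIP libraries stood at least 2-fold over the size-matched input and at which the untagged N2 control had no peak. They were chosen by their measured values: a peak of the MSTR-1 table with at least 1 input read, a scaled read value at least 2 times that of the input in each CLIP library, and no N2 peak sharing 1 nt or more on the same chromosome and strand. This rule kept 416 of the 2664 MSTR-1 peaks (15.6%). Folds over the input and the absence of an N2 peak are therefore properties of the choice and are given as descriptions, without tests. The peaks in the set were named by the genes they overlap in assembly WBcel235, on either strand.

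eCLIP sequences RNA fragments that UV light has crosslinked to a protein and that come down with it in an immunoprecipitation, and the size-matched input samples the same lysate before that step, so that abundant transcripts are not taken for bound ones. An untagged strain shows which RNA comes down with the antibody and beads alone. Many of the genes met below build the worm's outer body: the epidermis secretes a collagen cuticle, the body wall muscles lie under it, and hemidesmosomes in the epidermis join the muscle to the cuticle across a basement membrane.

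The libraries came from whole lysates of young adult Caenorhabditis elegans kept on standard NGM plates at 25 °C and exposed to UV light at 1.2 mJ/cm2. The tagged worms had the on49 allele of F22D6.2 on chromosome I, MSTR-1::3xFLAG, and the controls were N2, the laboratory wild type, which makes no FLAG-tagged protein. There were 2 immunoprecipitations of tagged worms, called biological replicates by the submitters, 1 immunoprecipitation of N2 worms and 1 input of the tagged genotype. Which CLIP column holds replicate 1 is not stated in the deposited table, so the CLIP libraries are called A and B. The tag sits in a single edited allele, and a whole lysate mixes all tissues, so fewer cells of a type and less RNA per cell cannot be told apart.

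Inside the 2664 peaks library A had 2438775 reads, library B 3592308 and the input 408945. The 416 peaks of the set held 12036, 18926 and 2283 of them. N2 CLIP had 934439 reads inside its own 310 peaks. A value in the deposited table is a scaled read number, the reads divided by a size factor of 0.921 for library A, 1.53 for library B and 0.693 for the input. A fold is the scaled value of a CLIP library over that of the input, and a mean fold is the mean of the folds of libraries A and B. The reads printed below are the whole reads recovered from the scaled values.

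Of the 2664 peaks, 213 had no input read, and 210 of these also had no N2 peak; the rule leaves all of them out, since no fold over 0 can be formed. Among the 2451 peaks with an input read, 508 stood at least 2-fold over it in both libraries. An N2 peak overlapped 92 of these 508, and the other 416 make up the set. A further 225 peaks passed 2-fold in library A alone and 291 in library B alone, and 1427 passed in neither. In the set, 9 peaks sat at the lowest value that the smaller of the library folds took, 2.008, which is 8 reads of library A against 3 of the input. Peaks over acer-1, mvk-1, eat-6 (the Na+/K+ ATPase alpha subunit), T24B8.3 and C05C10.3 were among those just inside. Just outside were peaks over col-60 (19, 22 and 5 reads in library A, library B and the input), msp-59 (41, 35 and 8), azin-1 (29, 72 and 11), rps-27 (73, 83 and 19) and col-155 (62, 83 and 19), with smaller folds of 1.984 to 1.999. The edge of the set therefore runs through a continuous range: 48 peaks without an N2 peak had a smaller fold of 2 to 2.2 and 81 had one of 1.8 to 2.

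The set was shallow. A peak in it had from 3 to 251 library A reads (median 15), 5 to 370 in library B (median 27) and at most 79 in the input (median 3). The median fold was 3.76 in library A and 3.79 in library B. The mean fold ran from 2.04 to 95.7 with quartiles of 2.91, 3.91 and 6.04, against a median of 1.38 over all peaks with an input read. A mean fold of 5 or more was reached by 143 peaks and one of 10 or more by 33. Exact 95% intervals of the fold were taken from the reads of both CLIP libraries together against those of the input. They lay wholly above 1 for 275 peaks (66.1%) and wholly above 2 for 77 (18.5%). Over all peaks with an input read these shares were 23.1% and 5.55%. For the 92 2-fold peaks with an N2 peak, which had a median of 20.5 input reads, they were 97.8% and 63%. These intervals cover counting error only and leave out any spread between inputs, of which there was 1. limma, fitted over all 2664 peaks with Benjamini-Hochberg adjustment at 0.05, called 168 of the 416 peaks higher than the input (40.4%), beside 12.7% of all peaks. The rule used that same contrast, so this count describes the set and adds nothing to it.

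Libraries A and B agreed within 2-fold of each other at 358 of the 416 peaks (86.1%), beside 74.5% of all peaks with an input read. The rule removed peaks at which either library was low, so this comparison follows from the choice. The ratio of library B to library A ran from 0.189 to 5.03 around a median of 0.979. Library B was more than 2-fold higher at 40 peaks and library A at 18. The widest gaps came with few reads. A peak over cysl-2, a cysteine synthase-like gene, had 3 library A reads, 25 library B reads and 1 input read, and kin-2, the regulatory subunit of protein kinase A, had 4, 29 and 1. In the other direction Y37E11AM.3 had 16, 5 and 1 reads and ptr-21, a patched-related gene, had 14, 7 and 1. At each of these peaks the smaller fold rests on 3 to 7 reads.

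**Figure D1:**
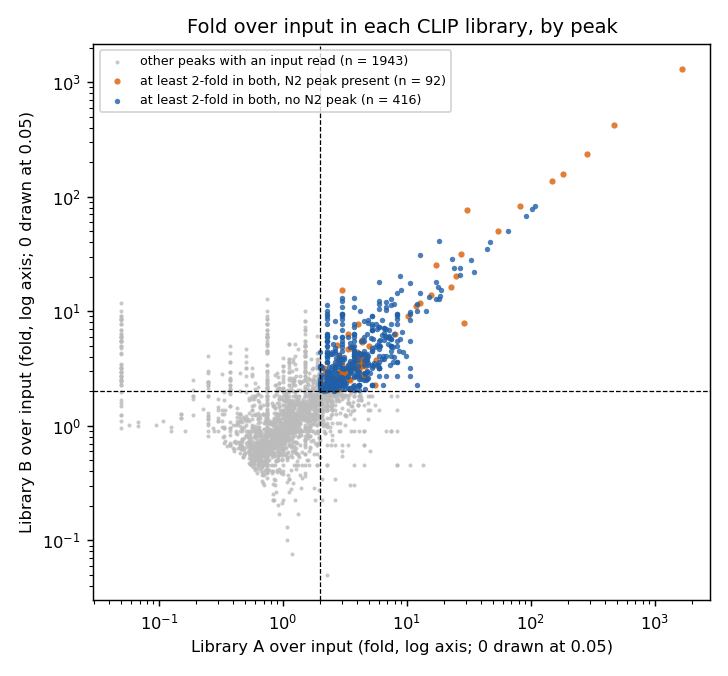
Fold over the input in library A (x axis) and library B (y axis), both on log axes, for each MSTR-1 peak with an input read. Blue points are the 416 peaks of the set, orange points the 92 peaks that also passed 2-fold in both libraries but have an N2 peak, and grey points the rest. Dashed lines mark 2-fold, and the blue points reach a mean fold of 95.7.

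Entry into the set depended strongly on input depth. Of peaks with 1 input read 118 of 192 were in the set (61.5%), of those with 2 reads 81 of 192 (42.2%) and of those with 3 to 4 reads 88 of 348 (25.3%). The share went on falling to 68 of 546 (12.5%) at 5 to 9 reads, 36 of 451 (7.98%) at 10 to 19, 21 of 344 (6.1%) at 20 to 49 and 4 of 378 (1.06%) at 50 or more. The median mean fold of the peaks in the set fell alongside, from 6.04 at 1 input read to 2.56 at 20 to 49. Of the 33 peaks at a mean fold of 10 or more, 32 had 1 to 5 input reads and the other had 8. The part of counting error in the input in these shares was not tested. The 61 peaks with 10 or more input reads are the better counted ones, and 32 of them lie over cuticle collagen genes. The interval of the fold lay wholly above 2 for 15 of these 61.

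**Figure D2:**
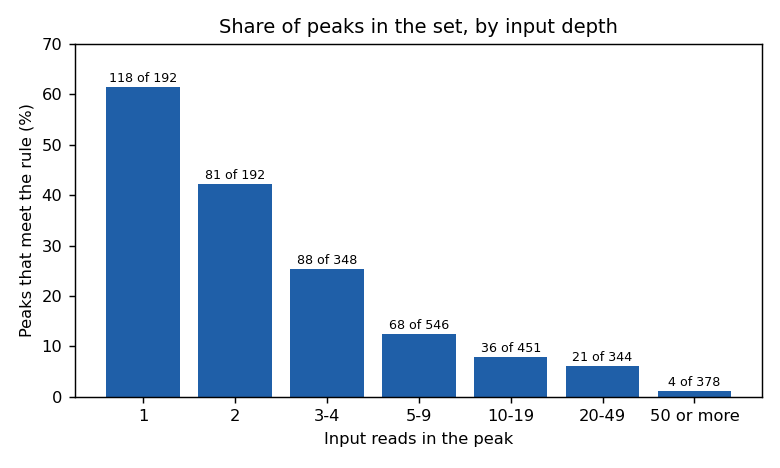
Share of MSTR-1 peaks that are in the set (y axis, percent) by the number of input reads in the peak (x axis). The numbers over the bars are peaks in the set of all peaks at that depth, and the share falls from 61.5% at 1 input read to 1.06% at 50 or more.

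The absence of an N2 peak also depended on depth. No N2 peak in the deposited list had fewer than 11 reads. If N2 CLIP had stood over the input by the same mean fold as MSTR-1 CLIP, with the size factors of the N2 table, the number of N2 reads to be expected at a peak would have had a median of 4.08 over the set, and it would have been under 11 for 335 of the 416 peaks. At this depth the lack of an N2 peak says little for these 335. Among all 508 peaks at 2-fold or more, an N2 peak was present at 5 of 258 (1.94%) with under 5.5 expected reads, at 22 of 74 (29.7%) with 11 to 22 and at 31 of 37 (83.8%) with over 44. The set holds 81 peaks with 11 or more expected N2 reads, and 42 of these lie over genes with no N2 peak at all, 26 of them cuticle collagen genes. The best covered were a peak over col-93 and dhc-4 (62.0 expected reads), the peak over mlc-3 (57.7) and one over col-10 (56.2). N2 peaks lay elsewhere in the same gene for 81 of the 416 peaks (19.5%). Of all peaks 21.3% lay over a gene with an N2 peak, but this share includes peaks that overlap one themselves. An N2 peak lay within 500 nt of 48 of the 416, beside 173 of all 2431 peaks without an overlapping N2 peak. None of the 416 overlapped an N2 peak on the opposite strand, and neither did any other MSTR-1 peak that lacked one on its own strand.

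The scaling of the libraries moved the folds of all peaks together. With TMM scaling in place of the authors' size factors the median mean fold of the set became 2.89, with DESeq2's size factors 2.97 and with column totals 0.931. The median over all peaks moved from 1.38 to 1.02, 1.05 and 0.329, so the set stood 2.83-fold above that median in each case. Applied anew, the rule kept 249, 254 and 30 peaks. Of the 30 that passed with column totals 10 were collagen and 9 histone peaks, and 20 had 1 input read. Column totals are the reads inside all peaks, and most CLIP reads lay in the 92 2-fold peaks with an N2 peak. These held 1.87e+06 of 2438775 reads in library A, 2.76e+06 of 3592308 in library B and 128014 of 408945 in the input. Every statement below of a peak standing above the input holds for the authors' size factors, and the counts under the other scalings are given per gene group.

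The 416 peaks overlapped 331 genes. A single gene lay under 377 of them, 2 genes under 37 (in 33 cases one gene inside the other) and none under 2. Of 1347 genes with a peak of their own 277 had one in the set: 208 had 1, 47 had 2 and 22 had 3 or more. For 140 genes every own peak was in the set, but only 23 of these genes had 2 or more own peaks. For 137 genes another own peak was not in the set. Protein-coding genes lay under 403 of the 416 peaks. Peaks in the set were 128.75 to 213.5 nt long between the quartiles (median 160), against a median of 164 for all peaks and 256 for the 2-fold peaks with an N2 peak. Their position within genes was like that of peaks in general, with a median distance to the nearer gene end of 374 nt against 376 nt and 35.3% within 200 nt of an end against 34.4%. Among nuclear chromosomes, the share of peaks in the set was lowest on III (50 of 433, 11.5%) and I (62 of 500, 12.4%) and highest on V (90 of 447, 20.1%). It was 16.1% on II, 16.6% on IV and 17.2% on X.

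Of the 28 gene lists counted, 22 had peaks in the set, and 226 of the 416 peaks (54.3%) lay over a listed gene, beside 44.4% of all peaks. The share of a list's peaks that entered the set is read against the 15.6% over all peaks. It ranged from 8 of 14 for hedgehog-related and ground-like genes down to 1 of 118 for cytosolic ribosomal proteins among the lists with a peak in the set, and it was 0 for the other 6. The lists differed in input depth, with medians over all their peaks from 1.5 reads for histones to 121 for ribosomal proteins, so the share among peaks of 10 or more input reads, 61 of 1173 (5.2%) for all peaks, is given where it helps.

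**Figure D3:**
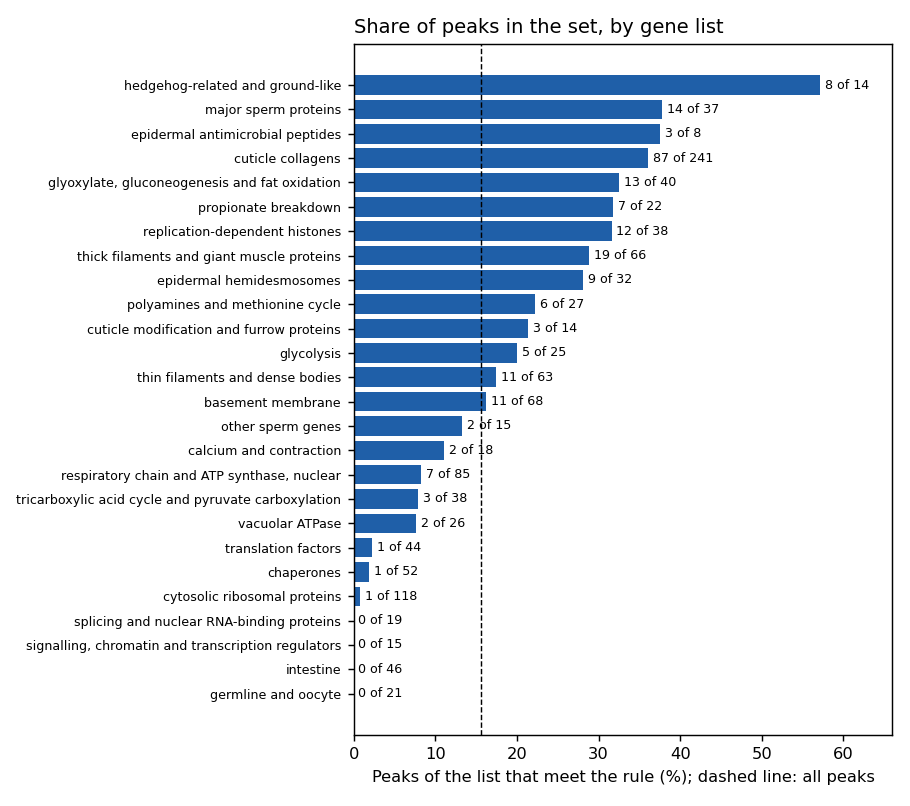
Share of the peaks over each gene list that are in the set (x axis, percent), with the number in the set of all peaks of the list beside each bar. The dashed line is the share over all 2664 peaks, 15.6%. Cuticle collagens have 87 of 241 peaks in the set and ribosomal proteins 1 of 118, and lists with under 10 peaks rest on few values.

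Cuticle collagens, the structural proteins of the exoskeleton, were the largest group. Of their 241 peaks 87 were in the set (36.1%), over 57 of 93 collagen genes with a peak, and another 29 passed 2-fold in both libraries but had an N2 peak. Reads per peak in the set were 3 to 251 in library A (median 43), 11 to 366 in library B (median 56) and 1 to 70 in the input (median 6). The median mean fold was 4.34, against 2.43 over all collagen peaks with an input read. Read within bins of input depth, 36 of 41 collagen peaks with 1 to 4 input reads were in the set (39.2% of all such peaks were), 19 of 36 with 5 to 9 (12.5%) and 32 of 152 with 10 or more (21.1% against 5.2%). The interval of the fold was wholly above 2 for 37 of the 87. The fold was higher in library A than in library B for 61 of the 87 and lower for 26, with a median ratio of B to A of 0.873. Library B stood higher at 201 of the 416 peaks of the set and at 1137 of all 2451 peaks with an input read. With TMM scaling 59 collagen peaks met the rule, with DESeq2's factors 59 and with column totals 10.

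Among peaks over a single collagen gene, col-167 had the highest mean fold. Its peak on chromosome X (6324190 to 6324442, minus strand) had 46 library A reads, 79 library B reads and 2 input reads, a mean fold of 17.6 (interval 4.801 to 148). The other 2 peaks of the same gene in the set, with 5 input reads each, stood at 6.89 and 5.24. The gene's remaining peak, which had the most input reads (37, 61 and 19 reads), stood at 1.46 and was outside the set. A peak over col-117 had 74, 90 and 3 reads (mean fold 16.1), one over col-111 had 24, 28 and 1 (15.4) and one over col-7 had 12, 34 and 1 (12.2). These values came with 1 to 3 input reads, and their upper limits are loose.

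The best counted collagen peaks stood lower. The peak over col-10 on chromosome V (9164360 to 9164686) had 207, 366 and 52 reads, which is 3.00-fold in library A and 3.20-fold in library B (mean 3.10, interval 2.35 to 4.23). A second col-10 peak had 113, 160 and 13 reads and a mean fold of 6.07 (3.42 to 11.3). Both lay near an N2 peak, 131 and 5 nt away. Of 2 peaks over col-12, one had 245, 269 and 58 reads (mean fold 2.64) and the other 192, 250 and 46 (2.81). Here library A stood above library B at both peaks, 3.18-fold against 2.11-fold and 3.14-fold against 2.47-fold. Other deep collagen peaks, chosen after their values were seen, were those over col-161 (137, 202 and 18 reads, mean fold 5.41), col-162 (89, 120 and 11, 5.52) and bli-6, a collagen whose mutants blister (58, 94 and 10, 4.32). The col-162 peak lay 47 nt from an N2 peak. Collagen genes resemble each other in sequence, and how reads were placed among them was not examined, which leaves the value of any one collagen uncertain.

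The highest mean fold of the whole set lay over a collagen nested in another gene. The genes col-92 and col-93 lie within dhc-4, a dynein heavy chain gene in the annotation, so their peaks carry both names, and they are described because of their values, outside the rule for naming genes. On chromosome III, 10982663 to 10982914, the peak over col-92 had 145 library A reads, 181 library B reads and 1 input read, a mean fold of 95.7. The next peaks along col-92 had 62, 89 and 1 reads (43.6) and 114, 165 and 8 (10.05). Over col-93 the peak of the set with the most reads, 251, 366 and 70, had a mean fold of 2.54. A deeper col-93 peak, with 287, 431 and 150 reads and a mean fold of 1.37, was outside the set. The peaks over these neighbouring genes had from 1 to 150 input reads.

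Other genes of the cuticle and epidermis also had peaks in the set. Of 14 peaks over cuticle modification and furrow genes 3 were in the set (21.4%). The peak over cut-2, a cuticlin of the insoluble cuticle, had 88, 135 and 10 reads, and the libraries were alike at 6.62-fold and 6.13-fold (mean 6.38, interval 3.37 to 13.4). This was the highest mean fold of any peak in the set with 10 or more input reads. An N2 peak lay 71 nt away in the same gene, and all 3 peaks lay over genes with an N2 peak. The hedgehog-related and ground-like genes, a nematode family of secreted proteins made largely in the epidermis, had 8 of 14 peaks in the set; their list was drawn up after the names in the set had been seen. A peak over grl-4 had 18, 45 and 2 reads (mean fold 8.50) and one over grl-21 had 10, 28 and 1 (10.1). Of 3 peaks over grl-16 the deepest had 38, 91 and 10 reads (3.50) and the others stood at 6.98 and 5.96. An N2 peak lay 375, 1271 and 49 nt from these 3, and 2 of the 6 grl-16 peaks overlapped one. All 8 peaks of the list in the set met the rule with TMM and DESeq2 scaling and 0 with column totals. Among epidermal antimicrobial peptides, 3 of 8 peaks were in the set, over cnc-4 (10, 25 and 1 reads, mean fold 9.44), nlp-34 (14, 20 and 2, 4.91) and nlp-28 (5, 9 and 1, 3.93). All 3 had 1 to 4 input reads, a depth at which 39.2% of all peaks were in the set. None of the 4 peaks of this list with 10 or more input reads was in the set.

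The hemidesmosome genes had 9 of 32 peaks in the set (28.1%), with a median mean fold of 3.81. All 9 had 1 to 4 input reads, as did 23 of the list's 32 peaks. At that depth the share of the list, 9 of 23 (39.1%), was that of all peaks (39.2%). The spectraplakin gene vab-10, whose protein anchors intermediate filaments at these junctions, had 5 of its 14 peaks in the set. They had 4 to 19 reads in library A, 7 to 24 in library B and 1 to 3 in the input, with mean folds of 2.68 to 6.96. They spread over 22.97 kb of a gene of 57.6 kb. None of the 14 vab-10 peaks overlapped an N2 peak, but the gene had one elsewhere. The nearest N2 peak lay 131 to 2439 nt from these 5 peaks. The vab-10 peaks with 10 or more input reads were outside the set, the deepest with 74, 118 and 50 reads and a mean fold of 1.09. Single peaks lay over mup-4, an apical matrix receptor (8, 8 and 1 reads, mean fold 4.83), and ifb-1, an intermediate filament (7, 21 and 2, 3.70), and 2 over let-805, the muscle attachment protein myotactin (4.60 and 3.81).

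Basement membrane genes had 11 of 68 peaks in the set (16.2%), close to the share over all peaks. The type IV collagen chains let-2 and emb-9 had 3 of 20 and 3 of 18. A let-2 peak had 10, 11 and 1 reads (mean fold 6.26), and the other 2 had 18 to 19 input reads and mean folds of 2.12 and 2.32. The peaks over emb-9 stood between 2.45 and 3.41. The papilin gene mig-6 had 3 of 13 (2.16 to 3.58) and unc-52, which encodes perlecan, had 2 (3.35 and 2.64). None of the 11 had an interval wholly above 2, and 6 met the rule with TMM scaling.

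Muscle genes were split into thick and thin filament lists. Thick filament and giant muscle proteins had 19 of 66 peaks in the set (28.8%), with a median mean fold of 3.17, and 5 of their 34 peaks with 10 or more input reads were among them. Among peaks over a single gene, that with the most CLIP reads lay over mlc-3, a myosin light chain (chromosome III, 5565040 to 5565525), with 216, 370 and 79 reads. The libraries stood at 2.06-fold and 2.13-fold, and the interval was 1.66 to 2.69, so the peak with the most input reads in the set sat near its lower edge. Over unc-15, which encodes paramyosin, the core protein of thick filaments, the reads were 111, 113 and 18, and library A stood higher than library B (4.64-fold and 2.85-fold). A peak over myo-3, a body wall myosin heavy chain, had 7, 15 and 1 reads (6.04), and 2 over the pharyngeal myosin gene myo-2 stood at 3.40 and 3.24. With TMM scaling 7 of the thick filament peaks met the rule and with column totals 0.

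The gene with the most peaks in the set was unc-22, which encodes the giant kinase twitchin. Of its 11 peaks 7 were in the set and none had an N2 peak. They had 3 to 12 reads in library A, 7 to 18 in library B and 1 to 2 in the input, and mean folds of 2.26 to 5.74. They covered 13.5 kb of a gene of 38.3 kb. Each rests on 1 or 2 input reads, depths at which 61.5% and 42.2% of all peaks were in the set. Their number along 1 transcript is a description only, since neighbours on a transcript are not independent measurements.

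Thin filament and dense body genes had 11 of 63 peaks in the set (17.5%), near the share over all peaks, and none of their 42 peaks with 10 or more input reads was among them. The actin gene act-3 gave the highest mean fold over a single gene. Its peak on chromosome V, 11072599 to 11072857, had 137 library A reads, 171 library B reads and 1 input read, a mean fold of 90.4 with an interval of 15.5 to 3458. An N2 peak lay 239 nt away in the same gene. The actin act-4 had a peak with 19, 42 and 3 reads (5.56). The peaks over tln-1, talin of the muscle attachment sites, had more signal in library A than in library B (22, 12 and 2 reads, 8.28-fold and 2.73-fold). The actin genes closely resemble one another, and which copy a read was placed on was not examined.

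Replication-dependent histone genes, whose products package DNA into nucleosomes, had the steepest folds. Of 38 peaks 12 were in the set (31.6%), over 9 genes, and a further 10 had no input read and could not enter. Reads in the 12 peaks were 4 to 173 in library A (median 40), 9 to 220 in library B (median 62.5) and 1 to 5 in the input (median 1). Their median mean fold was 21.2. The peak over his-57 on chromosome IV (11340374 to 11340696) had 173, 220 and 2 reads, a mean fold of 57.5 (interval 15.3 to 461). Over his-47 the reads were 121, 150 and 1 (79.6), over his-12 59, 77 and 1 (39.7), over his-11 44, 62 and 1 (30.6) and over his-45 31, 63 and 1 (25.98). A second peak over his-46 had 75, 101 and 3 reads and a mean fold of 17.1, with an interval of 5.595 to 81.4. All of these stood far above the input in both libraries. The 10 histone peaks with 10 or more input reads were all outside the set. With TMM and DESeq2 scaling all 12 met the rule, and with column totals 9. Histone genes come in near-identical copies, so the division of reads among single genes is uncertain.

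**Figure D4:**
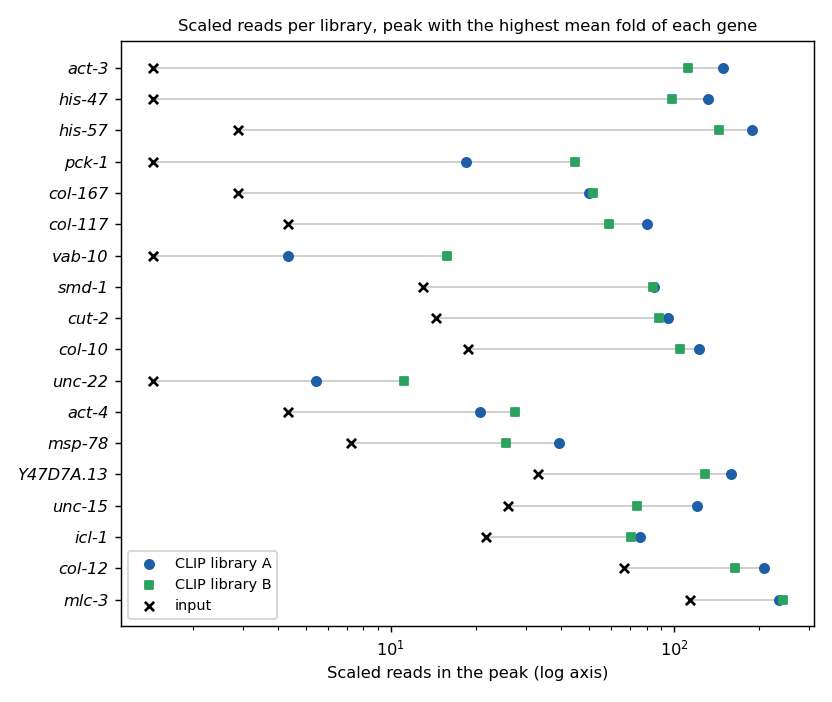
Scaled reads in library A (blue circles), library B (green squares) and the input (black crosses), on a log axis, for the peak of highest mean fold of each gene named at the left. The gap between input and CLIP is widest over act-3 (mean fold 90.4), where the input has 1 read, and narrow over mlc-3 (2.09), where it has 79.

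Metabolic genes of fat breakdown and sugar synthesis were also in the set. The list of the glyoxylate cycle, gluconeogenesis and fat oxidation had 13 of 40 peaks in it (32.5%), and 5 of its 19 peaks with 10 or more input reads were among them. Isocitrate lyase, encoded by icl-1 and the entry to the glyoxylate cycle, had 5 of its 10 peaks in the set. On chromosome V, 727519 to 727768, an icl-1 peak had 109, 130 and 22 reads (3.73-fold and 2.68-fold, interval 1.986 to 5.005). The 5 peaks had 8 to 22 input reads and mean folds of 2.54 to 3.39. The 5 icl-1 peaks outside the set stood at 1.43 to 2.38, and the one at 2.38 had an N2 peak. Peaks over pck-1, phosphoenolpyruvate carboxykinase, had 17, 68 and 1 reads (21.8), 16, 25 and 3 (3.90) and 30, 52 and 10 (2.31). Those over acs-2, an acyl-CoA synthetase of mitochondrial fat oxidation, had 18, 53 and 2 reads (9.41), 29, 62 and 7 (3.57) and 11, 19 and 4 (2.11). For both genes the highest mean fold came with 1 or 2 input reads. A further pck-1 peak (18, 50 and 0 reads) and 2 further acs-2 peaks (8, 25 and 0, and 16, 34 and 0) had no input read and could not enter the set. With TMM scaling 7 of the 13 met the rule and with column totals 1.

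The polyamine and methionine cycle list had 6 of 27 peaks in the set (22.2%), with a median mean fold of 5.79. None of its 10 peaks with 10 or more input reads was in the set. The deepest of the 6 lay over smd-1 (S-adenosylmethionine decarboxylase, which feeds polyamine synthesis), with 78, 129 and 9 reads. Its fold was the same in both libraries, 6.52 and 6.51 (interval 3.37 to 14.5). Outside the set were smd-1 peaks with 6, 11 and 5 reads (0.951) and 62, 43 and 11 (4.24-fold in library A, 1.78-fold in library B). A peak over azin-1, an antizyme inhibitor gene, had 16, 32 and 2 reads (6.65), while another azin-1 peak fell just outside the set. The phosphocholine synthesis genes pmt-1 and pmt-2 had 1 peak each (6.05 and 4.15). All 6 also met the rule with TMM scaling. Propionate breakdown, a list drawn up after the names in the set had been seen, had 7 of 22 peaks (31.8%) over both subunits of propionyl-CoA carboxylase (pccb-1 6.34 and 3.52, pcca-1 3.70), methylmalonyl-CoA mutase (mmcm-1, 5.81 and 5.51) and ech-6 (13, 9 and 1 reads, 6.94). The remaining peak, over hach-1, stood at 2.47 and is named after its value was seen. All but that one had 1 to 4 input reads.

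Glycolysis had 5 of 25 peaks in the set (20%), 3 of them over gpd-3, a glyceraldehyde-3-phosphate dehydrogenase (25, 51 and 6 reads, mean fold 3.50, then 2.40 and 2.04). The nuclear-encoded respiratory chain had 7 of 85 (8.24%), under the share over all peaks, with sdha-1 of succinate dehydrogenase at 3.87 (17, 57 and 5 reads) and isp-1, the Rieske protein, at 3.48. The tricarboxylic acid cycle had 3 of 38, over aco-1 (5.74), pyc-1 and mdh-1 (62, 130 and 22 reads, 2.40). The vacuolar ATPase had 2 of 26, with vha-12 at 12.1 (19, 22 and 1 reads). The lists of these last 3 systems were drawn up after the names in the set had been seen.

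Major sperm proteins, the cytoskeletal proteins that drive the crawling of nematode sperm, had 14 of 37 peaks in the set (37.8%), over 14 genes. Reads were 5 to 37 in library A (median 16), 10 to 44 in library B (median 30) and 1 to 8 in the input (median 4.5), and the median mean fold was 3.48. A peak over msp-79 had 16, 22 and 1 reads (11.02), msp-19 stood at 8.002, and msp-78 had 36, 39 and 5 reads (4.48, interval 1.74 to 13.5). None of the 9 major sperm protein peaks with 10 or more input reads was in the set. With TMM scaling 8 of the 14 met the rule. Other sperm genes had 2 of 15. The msp genes are near-identical copies, so values of single genes are uncertain.

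Several listed groups had few or no peaks in the set. Cytosolic ribosomal proteins had 1 of 118 peaks in it (0.847%), over rpl-41.1 (mean fold 2.72), and 116 of the 118 had 10 or more input reads. Translation factors had 1 of 44, over eif-2alpha (5.96), and chaperones 1 of 52, over the mitochondrial Hsp70 gene hsp-6 (3.13). Intestinal genes had 0 of 46, germline and oocyte genes 0 of 21, splicing factors 0 of 19 and regulators of signalling and chromatin 0 of 15. Of the intestinal peaks 31 had 10 or more input reads, and of the germline peaks 16, a depth at which 5.2% of all peaks were in the set. Of the 15 peaks of the regulators 6 had no input read and could not enter. In the last 2 of these lists 6 peaks each had 1 to 4 input reads, a depth at which 39.2% of all peaks were in the set. The gene of the tagged protein, mstr-1 (F22D6.2), was not in the set: its only peak had 21, 29 and 10 reads, 1.58-fold in library A and 1.32-fold in library B, and no N2 peak.

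Outside the lists, the pseudogene B0250.3 on chromosome V had 2 peaks in the set with 46, 48 and 1 reads (28.2) and 36, 46 and 1 (24). The gene Y47D7A.13 had 3 of 4 peaks in the set with deep input: 146, 197 and 23 reads (4.33, interval 2.77 to 6.76), 59, 98 and 14 (3.18) and 82, 188 and 26 (2.83). An N2 peak lay 90, 322 and 91 nt from them, and the remaining peak of the gene overlapped an N2 peak. The galectin gene lec-2 had 4 of 6, with mean folds from 2.34 to 8.84, all near the lower-coordinate end of the gene. Of 7 mitochondrial peaks 2 were in the set, over COX1, cytochrome c oxidase subunit I (32, 53 and 1 reads, 24.1), and over the ribosomal RNA gene KEF34_r01 (23, 28 and 1, 15.02). All 7 are listed on the minus strand, and whether the genes lie on that strand was not examined. A peak over no annotated gene, on chromosome II at 5599752 to 5599839, had 35, 133 and 3 reads (14.5); it was chosen after seeing these values.

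Non-coding genes were few. tRNA genes lay under 5 of the 416 peaks, of 52 such peaks in all, snoRNA genes under 5 of 33, and snRNA genes under 0 of 7. The tRNA gene F28H6.t3 had 35, 63 and 4 reads (6.87). A peak over the tRNA genes C12C8.t5 and C12C8.t2 on another chromosome had the same 35, 63 and 4 reads; it is named after its values were seen, and how reads were placed among tRNA copies was not examined. F22F1.t1 had 30, 43 and 6 reads (3.51) and the snoRNA gene F12F6.11 had 8, 7 and 1 (4.60). The steepest peak over a snoRNA, C16D9.11 within rol-3, a receptor tyrosine kinase gene, had 24, 91 and 1 reads and a mean fold of 29.7 and was likewise named after its values were seen.

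**Figure D5:**
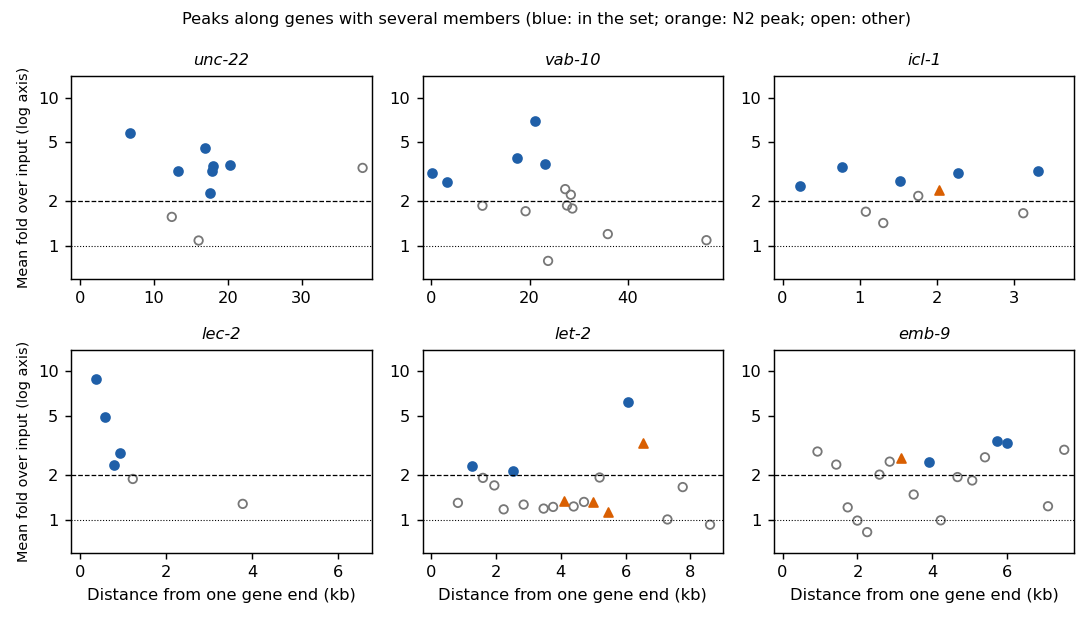
Mean fold over the input (y axis, log scale) by distance from one end of the gene (x axis, kb) for all peaks with an input read over 6 genes. Blue circles are in the set, orange triangles have an N2 peak and open circles are the rest, with the dashed line at 2-fold and the dotted line at 1. Peaks in the set lie among others of the same gene, as for icl-1, where 5 of 10 are in the set between 2.54 and 3.39.

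Some peaks of the set lay close together. On the same strand of a chromosome 83 of the 416 lay within 1000 nt of the one before, and 38 within 100 nt. The median gap was 190075 nt, and the same counts were not made over all peaks. Neighbours on a transcript are not independent measurements. Over emb-9 a further 7 peaks passed 2-fold in a single library, with mean folds of 1.94 to 2.97, and over icl-1 there was 1 such peak at 2.17. For emb-9 the mean folds of these peaks overlapped those of the peaks in the set (2.45 to 3.41), and for icl-1 they did not.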

How the data were processed

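The 4 libraries are eCLIP libraries, and their reads went through cutadapt, UMI-tools, STAR and deepTools, per the submitters' processing notes; for the versions and settings, the peak caller, its thresholds and the genome build, nothing is stated in the labels or tables. The authors deposited a table of MSTR-1 peaks and one of N2 peaks with a scaled signal per library and a fold ratio; this fold was not used. All values (100%) were, to within 0.02 of a read, multiples of the value of 1 read in their library, so read counts were recovered from the deposited signal. Coordinates are printed as deposited. Slid along WBcel235, 60 peaks took in 90% or more of a short RNA gene at a shift of 0 nt and 26 at a shift of 20 nt.

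Peaks were named by overlap of at least 1 bp with WBcel235 genes on either strand, leaving out 15363 piRNA genes. limma 3.58.1 in R 4.3.3, with a variance trend, was fitted to log2(scaled reads + 1) over all peaks. This takes the spread of the single input to equal that of the CLIP libraries. A run on reads simulated with a single dispersion for every peak and library could not check this. edgeR 4.0.16 and DESeq2 1.42.0 on the recovered counts were alternatives. The peaks and gene lists were chosen with earlier results of these data known. Genes named are, among peaks over 1 gene, the 10 with the highest mean fold, the 5 with most CLIP reads, the 5 genes with most peaks in the set, up to 4 genes per list, up to 3 per non-coding class, the 5 highest and 5 lowest ratios between CLIP libraries, the 5 peaks on each side of the threshold and F22D6.2. No sequence is printed, since no genome was used here.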

Additional observations from a re-analysis of the deposited data

How the results depend on the processing

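The rule kept 416 peaks, and with either CLIP library left out 621 to 694. It kept 675 peaks at a threshold of 1.5-fold, 222 at 3-fold and 125 at 4-fold, 129 with at least 5 input reads and 61 with at least 10. TMM scaling gave 249, DESeq2's size factors 254 and column totals 30, and 81 peaks were left where at least 11 N2 reads were expected, an alternative chosen after seeing the data. Other ways of matching N2 peaks kept 335 to 448 peaks. limma's 168 calls in the set became 46 with edgeR and TMM, 54 with DESeq2 and 0 with limma without a trend. The fit without a trend had 380 peaks at an unadjusted p under 0.05. edgeR with the authors' scaling gave 114 calls in the set, and other pseudocounts 160 and 166. Calls over all peaks also fell with edgeR under either scaling, with DESeq2 and with limma without a trend. The drops were therefore not confined to the set. The median mean fold, 3.91, was 3.76 to 3.79 in single libraries, 2.72 over peaks with at least 10 input reads, 2.89 with TMM, 2.97 with DESeq2's factors and 0.931 with column totals, the last 3 chosen after seeing the data. The median log2 CLIP over input of the named peaks, 1.72, was 1.13 with a pseudocount of 5, 2.09 with edgeR, 2.16 with DESeq2, 1.37 and 1.39 with TMM and DESeq2 scaling and 0.046 with column totals. The cause of these shifts was not tested.

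No paired analysis was possible because the input and N2 have 1 library each and the CLIP columns carry no replicate number. Calls without a replicate were not run, since 1 library against 1 leaves no residual degrees of freedom, and naming by strand was not run, since the gene table gives no strand. Depth limits the set: 199 of the 416 peaks had 1 or 2 input reads, and 335 had under 11 expected N2 reads, the fewest in any listed N2 peak.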

Other observations

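Of the 416 peaks, 190 lay over no listed gene. The following were chosen after their values were seen. The glycine-rich secreted protein genes grsp-3 and grsp-1 had 8, 40 and 1 reads in library A, library B and the input (mean fold 12.1) and 21, 51 and 2 (9.74). Both of these peaks stood higher in library B than in library A. A peak over sre-13 and lfor-1 on chromosome II had 95, 142 and 4 reads (17.003), the most CLIP reads of any unlisted peak at a mean fold above 10. A second grsp-1 peak in the set had 18, 27 and 5 reads (2.58). The gene egl-30, which encodes the G protein alpha subunit Gq, had 2 peaks in the set (30, 38 and 3 reads, 6.64, and 9, 26 and 3, 3.10). So did zip-2, a bZIP transcription factor known from the response to infection (35, 76 and 5, 6.09, and 18, 25 and 3, 4.15). A single peak lay over gdi-1, a Rab GDP dissociation inhibitor (14, 33 and 2, 6.38).

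Among unlisted peaks with 10 or more input reads, ZK180.5 had 48, 64 and 11 reads (2.96), and its other 2 peaks in the set had 44, 96 and 9 (4.26) and 56, 68 and 6 (6.09). The gene ram-2 had a deep peak (81, 148 and 25 reads, 2.56) and a shallow one (13, 37 and 2, 6.65). An N2 peak overlapped 2 of the 5 peaks over ZK180.5 and 2 of the 4 over ram-2. The deep ram-2 peak lay 30 nt from an N2 peak. For both genes the peaks of the set with fewer input reads had the higher mean folds. The cyclophilin gene cyn-5 had 35, 51 and 11 reads (2.25).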
